A study of Mus musculus with 5 samples.

Results

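The genes described here carry glucose into the cell and through glycolysis to lactate: Slc2a1, Hk2, Pfkl, Aldoa, Tpi1, Pgk1, Pgam1, Eno1, Pkm and Ldha, 10 genes chosen by name. Of these, 9 had a probe set that GEO's platform annotation pairs with 1 gene symbol, out of 19938 such genes on the array. Eno1, an enolase, was not analysed here because the annotation used lists no probe set under its symbol. Where the array holds more than 1 such set for a gene, that of highest mean was used. All 9 passed the filter on low values, a mean log2 intensity of at least 6, as did 6603 genes of the array. Expression was measured in CD45+ cells sorted by flow cytometry from the pancreas of 5 WT NOD females at 10 weeks of age, a strain prone to spontaneous autoimmune diabetes. Each mouse was imaged by MRI before its pancreas was taken, gave 1 array and carries 1 label of T2, a relaxation time of the MRI signal. T2 was 28.98, 30.02, 32.77, 35.24 and 35.3 ms in mice 5, 4, 3, 2 and 1. The mice form 1 group with no untreated or non-diabetic strain beside it, and the sorted cells are a mixture of all leukocytes of the organ. The question was which transcripts varied with T2, and how T2 relates to the degree of islet inflammation is not stated in the labels.

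Glycolysis splits glucose into pyruvate, and leukocytes that are activated or that divide take up more glucose and turn more of the pyruvate into lactate. Slc2a1 is the transporter GLUT1 at the entrance of the route. Hexokinase, phosphofructokinase and pyruvate kinase catalyse its irreversible steps, where flux is controlled. Several genes of the route are known targets of the hypoxia-inducible factor HIF-1, which binds the core sequence RCGTG (R is A or G), and of MYC, which binds CACGTG.

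The promoters of 4 of these genes are shown: Pfkl and Hk2 because their transcripts had the steepest slopes on T2, Pgk1 as the member with a slope above 0, and Ldha as the member whose window holds CACGTG. Each sequence runs from 250 bases before to 50 bases after a transcription start in RefSeq (GRCm38.p6), 5′ to 3′ along the gene's strand. Capitals mark ACGTG or GCGTG on either strand (CACGT or CACGC where the core lies on the other strand).
Pfkl (chr10:78009758-78010057, minus strand): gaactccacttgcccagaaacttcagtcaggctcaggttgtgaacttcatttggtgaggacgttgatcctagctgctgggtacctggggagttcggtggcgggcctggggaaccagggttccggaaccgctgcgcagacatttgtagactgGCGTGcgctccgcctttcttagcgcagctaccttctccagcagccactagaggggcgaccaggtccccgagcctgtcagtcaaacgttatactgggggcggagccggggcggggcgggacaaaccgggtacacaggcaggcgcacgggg
Hk2 (chr6:82774405-82774704, minus strand): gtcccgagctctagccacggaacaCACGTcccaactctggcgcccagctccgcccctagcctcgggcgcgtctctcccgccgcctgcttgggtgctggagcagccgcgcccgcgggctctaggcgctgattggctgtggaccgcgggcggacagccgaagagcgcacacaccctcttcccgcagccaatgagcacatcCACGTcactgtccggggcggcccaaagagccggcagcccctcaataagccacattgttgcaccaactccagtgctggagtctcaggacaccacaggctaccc
Pgk1 (chrX:106186850-106187149, plus strand): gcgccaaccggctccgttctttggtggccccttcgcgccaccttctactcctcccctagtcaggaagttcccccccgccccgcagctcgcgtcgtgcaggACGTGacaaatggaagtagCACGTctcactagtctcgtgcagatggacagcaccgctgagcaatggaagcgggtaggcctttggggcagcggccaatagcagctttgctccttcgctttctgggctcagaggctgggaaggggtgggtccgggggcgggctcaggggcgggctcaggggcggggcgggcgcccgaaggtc
Ldha (chr7:46845554-46845853, plus strand): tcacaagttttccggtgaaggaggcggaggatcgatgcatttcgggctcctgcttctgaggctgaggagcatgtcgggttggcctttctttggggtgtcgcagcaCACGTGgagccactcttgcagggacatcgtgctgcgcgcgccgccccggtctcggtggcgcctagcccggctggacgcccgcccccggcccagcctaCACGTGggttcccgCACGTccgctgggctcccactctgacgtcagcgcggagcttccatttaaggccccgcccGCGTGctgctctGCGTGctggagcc
ACGTG, read on both strands, stood in at least 1 promoter window of 7 of the 9 measured genes, against 21.8% of the 27025 genes with a window in the table. The exceptions were Pfkl and Tpi1. GCGTG stood in 4 of the 9, Slc2a1, Pfkl, Pgam1 and Ldha, against 35.2% of genes. CACGTG, which contains ACGTG on each strand, stood in 1 of the 9, against 8.09% of genes. That gene was Ldha, whose window above holds it at 2 places. The 27025 genes are those left after the windows of 1 chromosome were dropped. They had 32851 windows, and the 9 genes had 13. These matches describe letters in the windows, and no binding was measured.

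Ptprc, which encodes CD45 itself, had a log2 intensity of 11.06 ± 0.10 (SD, n = 5). Array medians lay between 23.8 and 24.5 on the deposited linear scale. Precision is limited by the number of arrays, and T2 falls in the order of the sample numbers, so any effect of handling order and of T2 cannot be told apart. Intensities are given on that scale, slopes as log2 intensity per ms of T2 with the standard error of the limma fit, and ratios as the fitted level at the highest over the lowest T2. A probe set's level is not set against that of another gene, since probes differ in affinity. Correlation coefficients are not given for so few mice.

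None of the 9 genes had a slope on T2 that passed limma's test (adjusted p under 0.05), where 0% of the 6603 genes tested passed and 349 stood at an unadjusted p under 0.05. At an unadjusted p under 0.05 stood 2 of the 9, Pfkl and Hk2, against 5.29% of genes tested. Both slopes were negative, against 4.59% of genes tested that had a negative slope at that p. Of the 9 slopes 8 were negative, against 67.9% of genes tested, with a median of -0.028 over the 9 and -0.0074 over all genes. With arrays centred on their medians or quantile normalized again, 6 of the 9 were negative. The median slope over all genes was then above 0, at 0.0063 and 0.0049, so the share of 67.9% does not hold for these settings. The median over the 9 was -0.0145 and -0.0126. By the probe sets used, all of the 9 genes but Pgk1 spread more over the mice than the median gene. The SD of log2 intensity ran from 0.074 for Pgk1 to 0.189 for Pgam1, with a median of 0.155, against a median of 0.105 over all genes tested. The SD was 0.071 by the other set of Pkm and 0.118 by the other sets of Pgam1. Genes with equal values on several arrays lower the median SD over all genes. Without genes equal on 3 or more arrays, 304 of 4079 genes stood at an unadjusted limma p under 0.05. Of the 9 members 1, Pfkl, then did. The median slope over all genes was -0.0125 in that setting. The standard errors of Pfkl and Hk2 rose from 0.0097 and 0.012 to 0.017 and 0.018.

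Slc2a1, the glucose transporter GLUT1, read 142, 142, 161, 123 and 144 in mice 5, 4, 3, 2 and 1. The mice of lowest T2 had equal values, and the highest and lowest values lay in mice 3 and 2. Its slope was -0.013 ± 0.024, with a ratio of 0.943 (95% interval 0.706 to 1.26; limma adjusted p = 0.936), and without mouse 2 it was 0.011.

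Hk2, the inducible hexokinase that traps glucose in the cell as its phosphate, read 84.1, 76.0, 79.3, 69.3 and 68.1 in mice 5, 4, 3, 2 and 1. The 3 mice of lower T2 were all above the other two, with mouse 3 above mouse 4. Its slope was -0.039 ± 0.012 and its ratio 0.845 (95% interval 0.732 to 0.974) (limma p = 0.0307, adjusted p = 0.828; exact two-sided permutation over the 120 orders of the mice, p = 0.0833). This did not pass over all genes. Without mouse 1, 2 or 5 its unadjusted limma p was 0.118, 0.109 or 0.169. No exact p of the design can be below 0.00833. The mean intensity of this gene, 6.23 on the log2 scale, was close to the filter.

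Pfkl, the liver-type phosphofructokinase of the step that commits sugar to glycolysis, read 117, 107, 104, 91.0 and 86.2 in mice 5, 4, 3, 2 and 1. Each mouse lay below the mouse of next lower T2, an order found in 1 of the 9 genes and in 1.15% of genes tested. The opposite order was found in 0 of the 9 and in 0.0909% of genes tested. Its slope was -0.059 ± 0.0097 and its ratio 0.772 (95% interval 0.685 to 0.870; limma p = 0.00412, adjusted p = 0.377; exact permutation p = 0.025). Leaving out each mouse in turn moved the slope between -0.065 and -0.051.

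Aldoa, the aldolase that cleaves fructose-1,6-bisphosphate, read 903, 969, 999, 841 and 766 in mice 5, 4, 3, 2 and 1. The peak lay in mouse 3, and the mice of highest T2 were lowest. The slope was -0.034 ± 0.021, with a ratio of 0.861 (95% interval 0.664 to 1.12; limma adjusted p = 0.828).

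Tpi1, the isomerase that interconverts both triose phosphates, read 184, 165, 209, 159 and 150 in mice 5, 4, 3, 2 and 1. Mouse 3 stood above the other 4 here as well. The slope was -0.028 ± 0.030 and the ratio 0.884 (95% interval 0.613 to 1.27; limma adjusted p = 0.850).

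Pgk1, the kinase of the ATP-yielding step after triose phosphate oxidation, read 326, 311, 345, 349 and 316 in mice 5, 4, 3, 2 and 1. By the sets used this was the least variable member, with its highest intensity 1.12 times its lowest. It was also the member with a positive slope, 0.010 ± 0.012, with a ratio of 1.05 (95% interval 0.899 to 1.22; limma adjusted p = 0.864).

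Pgam1, the mutase that moves the phosphate of phosphoglycerate, read 128, 171, 163, 129 and 145 in mice 5, 4, 3, 2 and 1. Mice 5 and 2, near opposite ends of the T2 range, were both low. The slope was -0.011 ± 0.033 and the ratio 0.954 (95% interval 0.637 to 1.43; limma adjusted p = 0.994). It changed sign without mouse 2 (0.010) or mouse 4 (0.012).

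Pkm, the muscle-type pyruvate kinase that makes pyruvate, read 380, 387, 447, 361 and 346 in mice 5, 4, 3, 2 and 1. Mouse 3 was again the highest by this probe set. The slope was -0.017 ± 0.023 and the ratio 0.927 (95% interval 0.697 to 1.23; limma adjusted p = 0.881).

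Ldha, the lactate dehydrogenase subunit that turns pyruvate into lactate, read 636, 736, 711, 641 and 531 in mice 5, 4, 3, 2 and 1. Mice 1 and 2, which differ by 0.06 ms of T2, differed more than mice 5 and 2, near opposite ends of the range. The slope was -0.035 ± 0.027 and the ratio 0.859 (95% interval 0.615 to 1.2; limma adjusted p = 0.828).

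**Figure D1:**
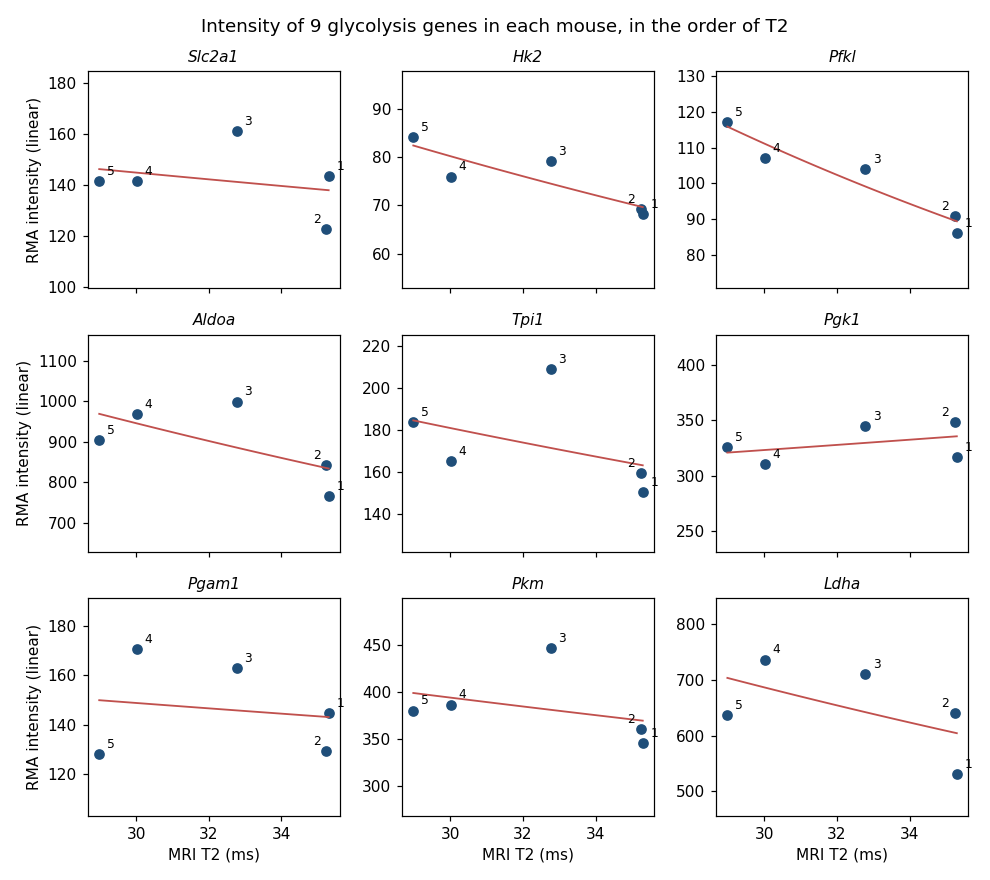
Linear RMA intensity (y axis, a separate range in each panel) of the 9 genes against the MRI T2 of the mouse in ms (x axis). Points are single mice with their numbers and the line is the fitted T2 slope. Pfkl is lower in each mouse of higher T2, from 117 to 86.2. By the probe sets used, Slc2a1, Aldoa, Tpi1 and Pkm peak in mouse 3.

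**Figure D2:**
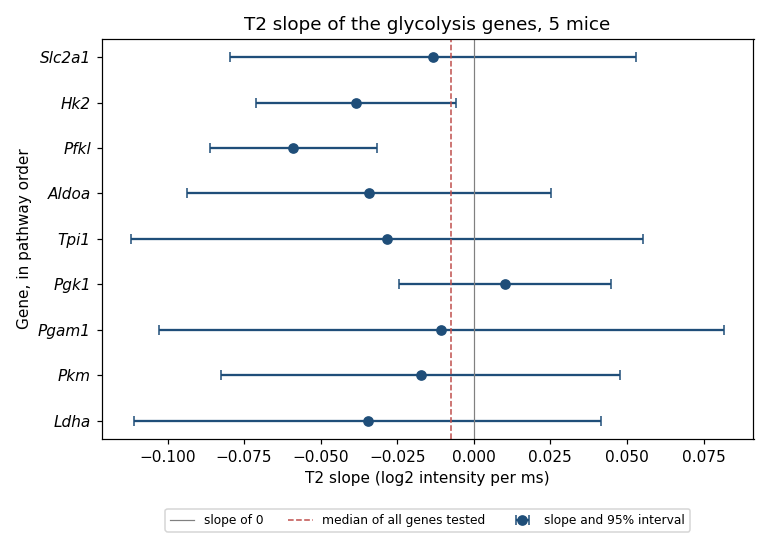
T2 slope in log2 intensity per ms (x axis) of each gene in pathway order (y axis), with 95% intervals of the limma fit over 5 mice. The intervals of Hk2 and Pfkl lie below 0 and those of the other 7 genes include 0, and no gene passed the adjusted threshold.

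Much of the spread of these genes ran across the order of T2. The mean of their log2 deviations from each gene's own mean was 0.029, 0.057, 0.149, -0.094 and -0.140 in mice 5, 4, 3, 2 and 1. Over all genes tested the median deviation of mouse 3 was -0.019. Mouse 3 alone held the highest value in 4 of the 9 genes, against 10.9% of genes tested, and mouse 1 alone the lowest in 6 of the 9, against 15.9%. Between the mice of nearly equal T2, 7 of the 9 genes were lower in mouse 1 than in mouse 2, against 31.6% of genes tested, and the median absolute difference was 0.135 on the log2 scale against 0.072 over all genes. These counts were chosen after the values were seen. Those of the highest value in mouse 3 and the lowest in mouse 1 include Pkm by the probe set used. By its other set, Pkm was lowest in mouse 3 and would enter neither. Among genes tested, 38.2% had equal values on 3 or more arrays. Such ties count as neither lower nor alone, which lowers the shares over all genes and their median difference.

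The early and late steps of the route can be read apart. The mean deviation of the 5 genes from Slc2a1 to Tpi1, which take up and prepare the sugar, was 0.099, 0.033, 0.151, -0.132 and -0.151 in mice 5, 4, 3, 2 and 1. For the 4 genes from Pgk1 to Ldha, of the energy-yielding steps and lactate, it was -0.060, 0.086, 0.146, -0.047 and -0.126 in mice 5, 4, 3, 2 and 1. The late mean in mouse 3 includes a deviation of 0.223 for Pkm by the set used. By its other set, Pkm was lowest in that mouse. The median slope was -0.034 for the early genes and -0.014 for the late ones, a difference that was not tested. Of the 36 pairs of members, Aldoa and Ldha had the most similar courses, with a root mean square distance of 0.058 between their log2 deviations over the 5 arrays, followed by Hk2 and Pfkl with 0.058. Pfkl and Pgam1 were farthest apart, at 0.221.

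The array holds several probe sets for 3 of the genes, and the choice among them mattered most for Pkm. The Pkm set used above lists no RefSeq mRNA of the gene. The other set, which does, read 303, 303, 272, 281 and 279 in mice 5, 4, 3, 2 and 1. Mouse 3 was thus the highest by the set of highest mean and the lowest by this other set, and the slope of the set with RefSeq mRNAs was -0.020 ± 0.0079 (limma unadjusted p = 0.0674). For Pgam1 the other sets are a pair with identical values, 129, 147, 148, 122 and 136 in mice 5, 4, 3, 2 and 1, with a slope of -0.012 ± 0.020. For Pgk1 another set repeated the values of the set used, and the third gave a slope of 0.0039 ± 0.012. Sets with identical values cannot be told apart, and which gene copy they measure is uncertain. In the fit reported, counts, means and nearest courses of the members take each of these 3 genes by the set of highest mean.

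**Figure D3:**
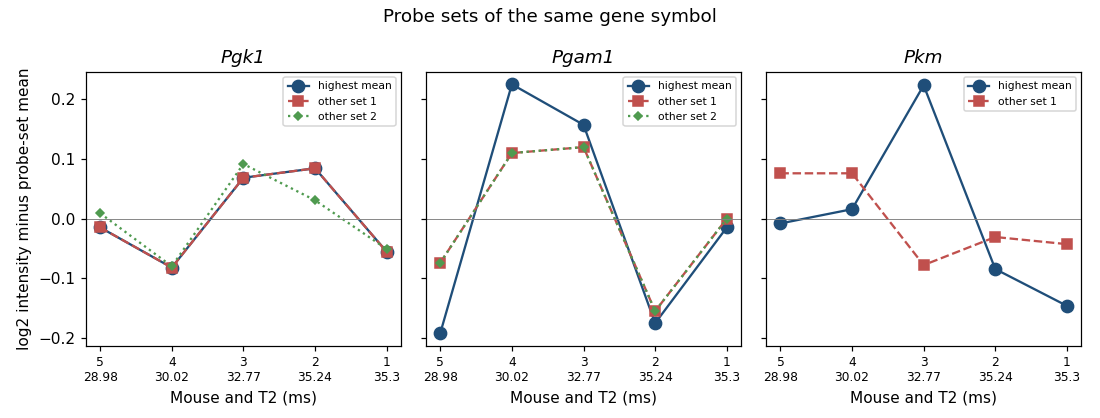
log2 intensity minus the mean of the probe set (y axis) in each mouse, in the order of T2 in ms (x axis), for every probe set of Pgk1, Pgam1 and Pkm with 1 symbol. The sets of Pgk1 run close together. Those of Pgam1 are all highest in mice 4 and 3, with an SD of 0.189 by the set of highest mean and 0.118 by the others. The 2 sets of Pkm diverge in mouse 3, where the one of highest mean reads 447 and the other 272.

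Other enzymes of glycolysis had few measurable transcripts beside the 9. Of 15 other isoforms and steps, 11 were matched to a single-symbol probe set and 3 of these lay above the filter, with 0 past the adjusted threshold and 0 at an unadjusted p under 0.05. Hk1, the constitutive hexokinase, read 2987, 2564, 2883, 2941 and 2941 in mice 5, 4, 3, 2 and 1, with a slope of 0.012 ± 0.015. The log2 ratio of Hk2 to Hk1 within an array had a slope of -0.050 ± 0.013 (exact permutation p = 0.075, two-sided; 0.15 after Benjamini-Hochberg over the 2 isoform pairs compared). Pfkp, the platelet-type phosphofructokinase, had a slope of -0.0051 ± 0.035, and the log2 ratio of Pfkl to Pfkp a slope of -0.054 ± 0.038 (exact permutation p = 0.283; 0.283 adjusted; 95% interval -0.176 to 0.068). Both pairs were chosen after the values were seen. Eno3, the enolase of muscle, had a slope of 0.042 ± 0.028 and was highest in mouse 1, with 103, the other mice reading 74.8 to 77.5. Pfkm, the muscle-type phosphofructokinase, and Hk3, a hexokinase of myeloid cells, lay under the filter, with the same value on 4 of the 5 arrays. Gpi1 has no listed set and those of Gapdh carry several symbols, so neither is given.

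Of 10 other glucose transporters, 3 passed the filter and 0 passed the test, also at an unadjusted p. Slc2a3, the high-affinity transporter GLUT3 of leukocytes, read 133, 120, 164, 130 and 113 in mice 5, 4, 3, 2 and 1, with a slope of -0.0096 ± 0.035. Slc2a6, a transporter of lysosomal membranes, read 122, 117, 148, 84.9 and 115 in mice 5, 4, 3, 2 and 1, with a slope of -0.043 ± 0.045. Both were highest in mouse 3, as Slc2a1 was. Slc2a9 had the same value, 72.1, on all 5 arrays, and the insulin-regulated Slc2a4 and the beta cell transporter Slc2a2 lay under the filter.

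Among 15 genes of lactate and pyruvate fate, 9 passed the filter, with 0 under an unadjusted p of 0.05. Of those past it, 6 had a negative slope, against 67.9% of genes tested. Slc16a3, the lactate exporter MCT4, read 110, 110, 135, 84.9 and 110 in mice 5, 4, 3, 2 and 1, with a slope of -0.028 ± 0.039. Slc16a1, the transporter MCT1 of lactate and pyruvate, had a slope of -0.034 ± 0.024 and was highest in mouse 5, at 79.2. Bsg, the chaperone of both transporters, read 286 in mouse 4 and 225 to 229 in the others, and Emb, a related chaperone, had a slope of 0.020 ± 0.025. Pdk3, a kinase that inhibits pyruvate dehydrogenase, had a slope of -0.015 ± 0.0090. Pdk1, a hypoxia-responsive kinase of the same family, lay under the filter.

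The genes that set fructose-2,6-bisphosphate, the activator of phosphofructokinase, and those of gluconeogenesis had small slopes. Of 10 such genes 6 passed the filter, with slopes between -0.016 for Pfkfb4 and 0.020 for Tigar, and 0 under an unadjusted p of 0.05. Pfkfb3, the kinase isoform of activated cells, read 112, 109, 103, 109 and 118 in mice 5, 4, 3, 2 and 1, lowest in the mouse where Slc2a1, Aldoa and Tpi1 were highest.

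Of 8 factors of hypoxia sensing and transcription, 6 passed the filter and 0 reached an unadjusted p of 0.05. Hif1a, the oxygen-regulated subunit of HIF-1, had the value 258 in mice 5, 4 and 3, 253 in mouse 2 and 239 in mouse 1, with a slope of -0.011 ± 0.0067. Myc read 251, 243, 240, 224 and 243 in mice 5, 4, 3, 2 and 1, with a slope of -0.014 ± 0.0083. Of 14 hypoxia response genes outside glycolysis, 7 passed the filter, with 0 under an unadjusted p of 0.05. Of these 7, 5 had a negative slope, against 67.9% of genes tested. Ddit4, an inhibitor of mTORC1 signalling, had a slope of 0.047 ± 0.020 and read 163 in mouse 2 against 119 to 132 in the others. P4ha1, a collagen prolyl hydroxylase subunit, had -0.025 ± 0.012, and Bnip3l, a mitophagy receptor, -0.019 ± 0.013. Mif, a cytokine and HIF target, had -0.00077 ± 0.025, and Vegfa lay under the filter.

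Branches that leave glycolysis gave 2 genes at an unadjusted p under 0.05. Pygl, the glycogen phosphorylase of liver and leukocytes, read 286, 246, 256, 151 and 165 in mice 5, 4, 3, 2 and 1. The mice of highest T2 were below the other 3. Its slope was -0.127 ± 0.031 and its ratio 0.572 (limma adjusted p = 0.622). Gfpt1, which opens the hexosamine route to protein glycosylation, had a slope of -0.023 ± 0.0081 (limma adjusted p = 0.828). They were 2 of 5 genes past the filter, of 10 in the list, at that p, against 5.29% of genes tested (4.59% with a negative slope). The pentose phosphate pathway, which makes NADPH and ribose, had 7 of 8 genes past the filter. Of these 7, 5 had a negative slope, against 67.9% of genes tested, and 0 were under an unadjusted p of 0.05. Rpia and Rpe, the isomerase and the epimerase of ribulose phosphate, had slopes of -0.040 ± 0.026 and -0.021 ± 0.014, and both were highest in mouse 5 and lowest in mouse 3. Pgd, its phosphogluconate dehydrogenase, read 241, 222, 315, 189 and 198 in mice 5, 4, 3, 2 and 1. Taldo1, transaldolase, read 204 in mouse 3 and 130 to 136 in the others. Mouse 3 was highest in Pgd and Taldo1 and lowest in Rpia and Rpe. Taldo1 was chosen after its values were seen.

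Marker transcripts of leukocyte types differed in level between the mice. Cells of each type were not counted, and in such mixed RNA fewer cells of a type and less RNA per cell cannot be told apart. All 12 macrophage markers past the filter, of 14 with a probe set, had a negative slope, against 67.9% of genes tested, and 10 of them stood at an unadjusted p under 0.05, against 5.29% of genes tested. The mean log2 intensity of these 12 was 9.0, 8.98, 8.44, 7.86 and 7.73 in mice 5, 4, 3, 2 and 1, the direction of Pfkl, Hk2 and Pygl. The neutrophil markers, with 7 of 12 past the filter, averaged 7.97, 6.72, 8.77, 6.98 and 7.44 in mice 5, 4, 3, 2 and 1. They were highest in the mouse where Slc2a1, Tpi1, Aldoa, Pgd and Taldo1 were highest and Rpia and Rpe lowest. In mouse 4, where these markers were lowest, Ldha and Pgam1 had their highest values, 736 and 171. Pgk1 was highest in mouse 2. S100a8 and S100a9 of the neutrophil list read 460 and 645 in mouse 3. Their ranges in the other mice were 96.8 to 272 and 150 to 352. Ly6g, Camp, Ltf, Retnlg and Mmp8 of that list lay under the filter. The part of macrophages and neutrophils in the glycolysis values was not tested. The list of dissociation stress genes had 13 of 14 negative slopes, against 67.9% of genes tested, and 5 of the 14 stood at an unadjusted p under 0.05, against 5.29%. It had means of 8.79, 8.42, 8.31, 8.10 and 8.22 in mice 5, 4, 3, 2 and 1, and its part was not tested either.

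The T cell markers, 10 of 11 past the filter, averaged between 7.98 in mouse 1 and 8.84 in mouse 2, and the B cell markers, all 11 past it, between 8.25 in mouse 2 and 9.19 in mouse 1. In mice 1 and 2, of nearly equal T2, these lists thus stood at opposite ends, and 7 of the 9 glycolysis genes were lower in mouse 1. Proliferation genes, 6 of 14 past the filter, averaged 6.99, 7.25, 7.13, 7.23 and 7.13 in mice 5, 4, 3, 2 and 1. Of their 6 slopes 5 were positive, against 1 of 9 for the glycolysis genes, where 67.9% of genes tested had a negative slope. Of the 6, 0 stood at an unadjusted p under 0.05. All 5 mast cell markers past the filter, of 10, had a negative slope, with means of 7.03, 6.86, 6.90, 6.31 and 5.79 in mice 5, 4, 3, 2 and 1, and 3 of them stood at an unadjusted p under 0.05, against the same 67.9% and 5.29% of genes tested. Dendritic, NK and plasma cell markers had 7, 4 and 4 genes past the filter, of which 1, 0 and 0 stood at that p. Acinar markers, 5 of 9 past the filter, averaged from 6.68 in mouse 2 to 7.60 in mouse 1. Of 10 endothelial markers 1 passed. No islet endocrine, ductal, fibroblast or erythroid marker passed the filter, and their list means stayed between 3.72 and 4.32.

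**Figure D4:**
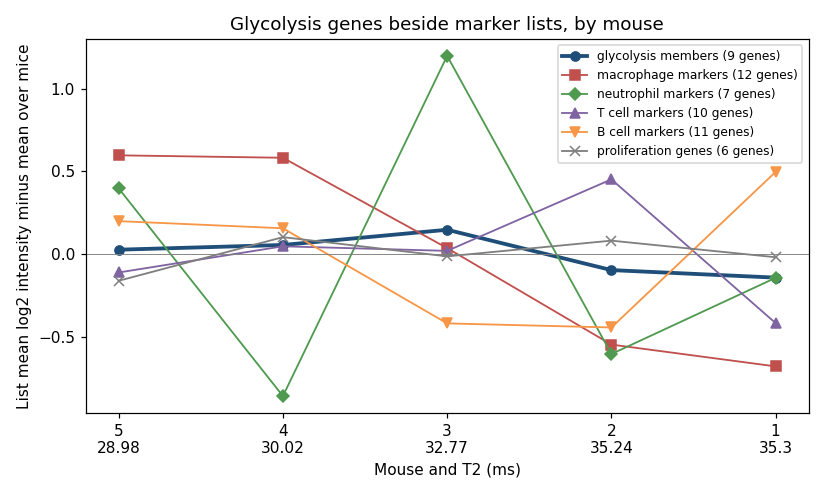
Mean log2 intensity of each list minus its mean over the mice (y axis) in each mouse, in the order of T2 in ms (x axis), over the members past the filter. The glycolysis genes span from 7.72 in mouse 1 to 8.01 in mouse 3, a narrower range than the macrophage and neutrophil lists, which span 7.73 to 9.0 and 6.72 to 8.77.

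The genes with courses most like the mean of the 9 were Emc4, a subunit of a membrane protein complex of the endoplasmic reticulum, Txn2, the mitochondrial thioredoxin, Vdac1, a channel of the outer mitochondrial membrane, Sptlc2, a subunit of serine palmitoyltransferase, and Ehd1, an ATPase of endocytic recycling. Their root mean square distance from the mean course of the 9 genes, over log2 deviations on 5 arrays and among 6594 genes, was between 0.034 and 0.042, against 0.105 for a flat course. Emc4 read 151, 153, 160, 141 and 140 in mice 5, 4, 3, 2 and 1. The genes nearest to Pgam1, the member of largest SD by the sets used, were Reep4, Ntpcr, Fcf1, Ctdsp1 and Atp6v0d1, at distances from 0.035 to 0.083.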

How the data were processed

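CD45+ cells were sorted from the pancreas of 5 mice and total RNA was extracted with TriZol, biotin labelled and hybridised to 1 array per mouse, per the labels. The authors deposited linear intensities per probe set. The submitters' processing notes name Affymetrix Power Tools and RMA, a method of background correction, quantile normalization and probe summary. No version or build of theirs is given in the sources used here. The linear scale was read from the deposited intensities, which ran from 2.87 to 19435. Equal values on 3 or more arrays occurred in 38.2% of genes tested and lower their residual spread.

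Intensities were taken to log2. Of 35556 probe sets, 21789 have 1 gene symbol, 1621 several and 12146 are unnamed here. The probe set of highest mean stood for each gene, and the 6603 genes with a mean log2 of at least 6 entered a linear model on T2 (limma 3.58.1, lmFit then eBayes, under R 4.3.3), two-sided, with 3 residual degrees of freedom and Benjamini-Hochberg adjustment over all of them at 0.05. The fit was tested on simulated data with slopes steeper than those of the members, so that test does not cover slopes of their size. Exact permutations used the 120 orders of the mice. The labels give separate mice and no batch or date.

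The members, the 25 gene lists and the tests were chosen with earlier results of these data known. All members are named. Of other lists, up to 4 genes of largest moderated t, the fixed genes Hif1a, Myc, Slc2a3 and Slc16a3, and genes under the filter are named. Other named genes (Pfkfb3, Mif, Taldo1, Slc2a9, S100a8, S100a9) were chosen after their values were seen. Alternatives tried were other filters, normalizations, probe sets, a rank of T2, variance models, array weights, removal of genes with equal values and each mouse left out.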

Additional observations from a re-analysis of the deposited data

Results flagged for a closer look

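The 9 glycolysis genes and 20 list means were searched for a mouse that lay far from all others (distance to the closest value over the full range, above 0.71 for 5 mice). There was none, where chance alone flags about 1 in 20.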

How the results depend on the processing

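The number of glycolysis genes past the adjusted threshold was 0 under every alternative run, each left-out mouse included. Over all genes tested it was 3 with a filter at 7, 4 with arrays centred on their medians, 4 with array weights and 35 without genes of equal values, against 0 in the fit reported, and the cause was not tested. The median slope of the members stayed negative, from -0.033 to -0.013 with each mouse left out and -0.013 with arrays quantile normalized again. At a filter of 7, Hk2 and Pfkl are left out and 7 members remain. Of 165 alternative values of single genes, 157 kept direction and side of the threshold and 7 changed sign. The remaining 1, the exact permutation for Hk2, crossed the threshold. That threshold was an adjusted p of 0.05 for limma and an unadjusted one for the exact permutation. Other probe sets were read for direction alone. Other filters, variance models, removal of genes with equal values and the exact permutation leave a gene's slope unchanged. Its direction could not change in those alternatives. The slope of Slc2a1 was 0.00054 with arrays quantile normalized again and 0.00045 with centred arrays, and ranged from -0.024 to 0.011 with each mouse left out. That of Pgam1 was 0.0025 and 0.0031 under the same normalizations and ranged from -0.064 to 0.012. The unadjusted limma p of Hk2, 0.0307 as reported, was 0.05 or more in 7 alternatives: 0.194 with centred arrays, 0.0859 with arrays quantile normalized again, 0.0544 without moderation, 0.0702 without genes of equal values, and 0.118, 0.109 and 0.169 without mice 1, 2 and 5. That of Pfkl was so in 0 alternatives. No paired analysis was possible because the mice form 1 group. With 5 arrays the intervals of the ratios are wide.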
